A study of Camellia reticulata with 27 samples.

Results

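The transcripts described here were those that lay lowest at the initial flowering stage of Manao (MN), a Camellia reticulata cultivar with mixed red and white petals. They were chosen by their group mean FPKM (fragment counts scaled to transcript length and library size). For each transcript with a group mean of at least 5 FPKM in an MN group, the log2(group mean FPKM + 1) at initial flowering was subtracted from the lowest such value among the 4 other MN groups. The 150 transcripts with the highest difference, called the score below, were taken from 44792 such candidates among the 225938 transcripts of the table. Because the MN groups chose the members, every MN value is a description and no MN contrast was tested.

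The study compared petals (labelled as flowers) of 3 cultivars: the white Tongzimian (TZM), the red Shizitou (SZT) and MN, which arose from SZT as a bud variant. MN was sampled as whole petals at bud stage 1, bud stage 3 and initial flowering, and as separate red and white petal regions at full bloom. TZM and SZT were sampled at the bud and at full bloom. Each of the 9 groups held 3 RNA-seq libraries, which the labels number but do not assign to separate plants, so p-values measure the spread between these libraries, which may be technical. Initial flowering was sampled in MN alone, so it could not be compared with the same stage of TZM or SZT. Whether the low values go with this stage in every cultivar or in MN only therefore cannot be told.

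At initial flowering the buds part and the petals unfold, and in petals generally growth passes from cell division to cell expansion as the flower opens. Red color in petals comes from anthocyanins, flavonoid pigments held in the vacuole, which are made from phenylpropanoid precursors by chalcone synthase (CHS), flavanone 3-hydroxylase (F3H), then dihydroflavonol 4-reductase (DFR) and, last, anthocyanidin synthase (ANS). The transcripts were assembled de novo from the reads, that is, without a genome. The files carry an identifier but no gene name or function for the members, so they are described by identifier, and no function is given to any of them.

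The members were scarce in each of the 3 initial flowering libraries. Their median was 0.185, 0.38 and 0.235 FPKM in initial flowering replicates 1, 2 and 3, against 11.2 to 18.5 FPKM in the 12 other MN libraries. Their summed FPKM was 683, 1113 and 732 in the initial flowering libraries, and it lay between 6814 and 28621 in the other 12. As a share of a library's FPKM this was 0.0571% to 0.0923% at initial flowering and 0.595% to 2.25% in the other MN libraries. Between 63 and 69 members were listed at 0 in an initial flowering library, compared with 13 to 26 in another MN library. The initial flowering libraries were not poor in transcripts: 143078 to 146500 transcripts were above 0 in them, against 126900 to 142971 in the other MN libraries. The total FPKM per library was 1.196e+06 to 1.215e+06 at initial flowering and 1.127e+06 to 1.289e+06 in the other MN libraries. The study gives its clean reads as a total and a mean, not library by library, so the depth behind a single value is unknown. In bulk petals, fewer cells that express a transcript and less RNA per cell cannot be told apart.

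**Figure D1:**
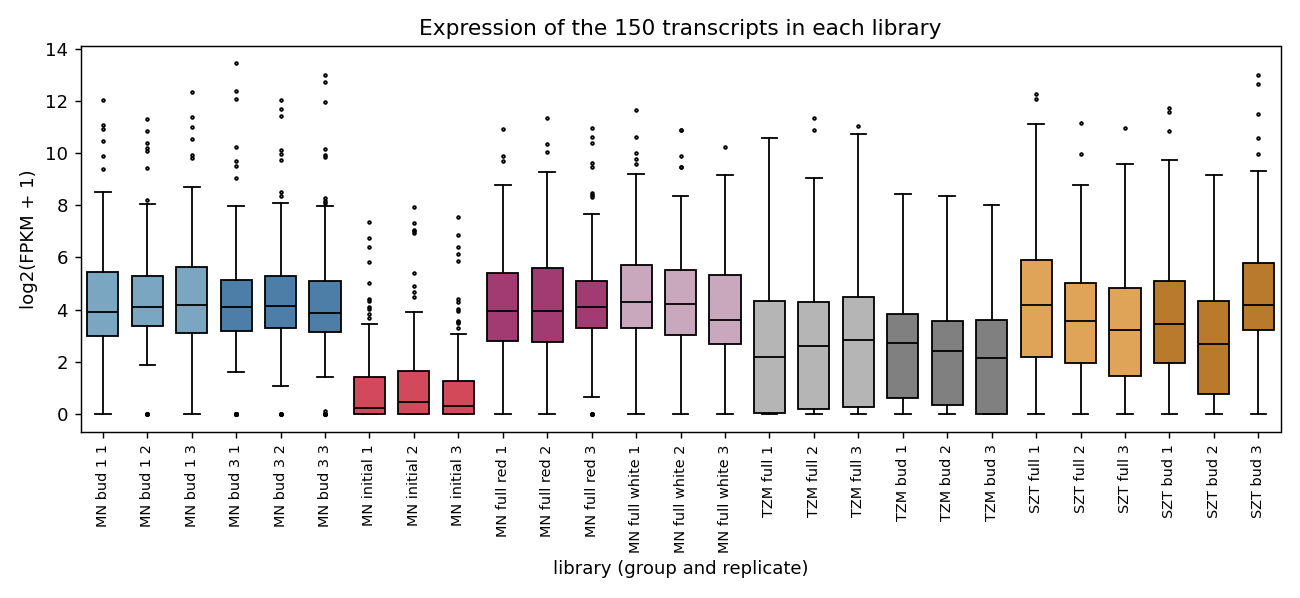
Box plots of log2(FPKM + 1) for the 150 transcripts (vertical axis) in each of the 27 libraries (horizontal axis, group and replicate), with the median as a line, quartiles as the box and points beyond the whiskers. The 3 MN initial flowering libraries have medians of 0.185 to 0.38 FPKM, and SZT bud replicate 2 lies below the other 2 SZT bud libraries.

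The scores ranged from 2.12 to 5.44 with a median of 2.53, and 36 members had a score of at least 3 and 9 of at least 4. Among the candidates the median score was -0.78, and 5488 (12.3%) had a score above 0. At the edge of the selection, Cluster-102828.7, Cluster-31975.13 and Cluster-12300.0 were the last members, each with a score of 2.12. The next transcripts, left out, were Cluster-62091.0 (2.11), Cluster-70753.4 (2.11) and Cluster-14609.0 (2.10), so the threshold runs through a series of near-equal scores.

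By group, the median of the members' mean FPKM was 14.5 at MN bud stage 1, 15.3 at bud stage 3, 0.443 at initial flowering, 14.8 in the full-bloom red region and 16.3 in the full-bloom white region. Across the candidates the medians lay between 5.94 and 7.71 FPKM in these 5 groups, with 6.86 FPKM at initial flowering. The members therefore had medians above those of the candidates before and after initial flowering. The lowest group other than initial flowering was bud stage 1 for 33 members, bud stage 3 for 49, the red region for 33 and the white region for 35.

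The 150 members were of 2 kinds in the single libraries. For 97 members all 3 initial flowering libraries lay below all 12 other MN libraries, as they did for 2.85% of the candidates, and the rule itself favours such transcripts. These 97 had a median of group means of 0.993 FPKM at initial flowering, against 20.1 to 24.2 FPKM in the 4 other MN groups, and none of them was at 0 in any of the 12 other libraries. For the remaining 53 members the libraries overlapped, and 51 of these were listed at 0 in at least 1 of the 12 other MN libraries. Their median was 0 FPKM at initial flowering and 8.51 to 9.50 FPKM in the other MN groups. Over the 150 members, 75 were above 0 in all 3 initial flowering libraries and 54 in none, and 45 of those 54 belonged to the overlapping members. For the overlapping members the low mean thus rests on zeros that also occur at other stages. When each of the 15 MN libraries was left out in turn, 61 members were chosen again each time, of which 56 were among the 97 without overlap.

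Cluster-82174.1 had the highest score, 5.44. It was at 0.99, 1.64 and 0.35 FPKM in the initial flowering libraries, while the 12 other MN libraries ranged over 66.4 to 214 FPKM. Its mean of 0.993 ± 0.645 FPKM (SD, n = 3) at initial flowering was exceeded 86.3 times by its mean at MN bud stage 3, the lowest of the other groups at 85.7 ± 27.9 FPKM. No initial flowering library came near any other MN library for this transcript.

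Cluster-72815.3 followed the same course at higher levels, with 8.77, 5.34 and 4.15 FPKM at initial flowering. Its libraries held 127.94, 209.43 and 164.08 FPKM at bud stage 1 and 250.42, 272.97 and 308.69 FPKM at bud stage 3. At full bloom they held 374.76, 303.20 and 314.38 FPKM in the red region and 435.24, 328.21 and 548.47 FPKM in the white region. Outside initial flowering this transcript was thus lowest at bud stage 1 and highest at full bloom, and its mean at bud stage 1 was 27.5 times that at initial flowering. Cluster-108638.0 was at 0.93, 0.26 and 0.23 FPKM at initial flowering, against 24.0 to 142 FPKM in the 12 other MN libraries. For Cluster-58130.6 the initial flowering libraries held 4.47, 7.35 and 3.10 FPKM and the others 74.9 to 330 FPKM. Neither of these transcripts had overlapping libraries.

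Other members with high scores were uneven between replicates. Cluster-94580.9, with a score of 4.36, was at 0, 0.07 and 0.03 FPKM at initial flowering. It was also at 0.15 FPKM in red region replicate 2 and at 0 and 0.05 FPKM in white region replicates 1 and 2, while its other MN libraries reached 138 FPKM. Its mean of 20.2 ± 34.9 FPKM in the white region came almost wholly from replicate 3, at 60.56 FPKM, so the libraries of this transcript switched between presence and near absence within groups. Cluster-74118.16 was listed at 0 in all 3 initial flowering libraries and at 9.5 to 173 FPKM in the 12 others. Cluster-26739.0, also at 0 in the 3, held 7.9 to 89.4 FPKM in the others. Cluster-67147.4, at 0 in the 3 as well, was at 0 in bud stage 1 replicate 3 too and otherwise at 7.94 to 54.8 FPKM. No fold is given against a group listed at 0.

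Cluster-35359.6 was at 0, 4.20 and 0 FPKM at initial flowering and at 5.47 to 247 FPKM in the other MN libraries, and Cluster-73940.2 was at 1.85, 0.20 and 2.37 FPKM at initial flowering and at 16.2 to 267 FPKM in the others. These 2 complete the 10 highest scores.

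**Figure D2:**
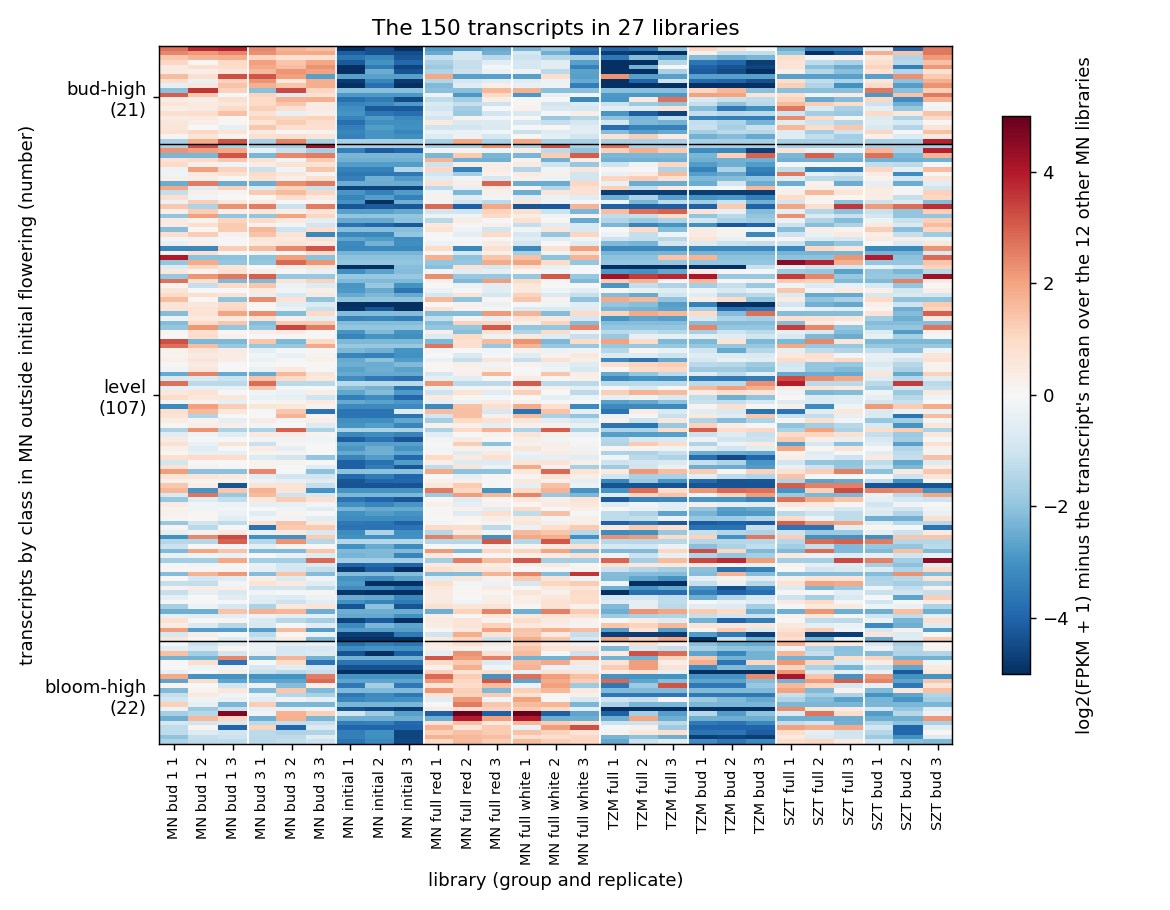
Heat map of the 150 transcripts (rows, grouped by their class in MN outside initial flowering) in the 27 libraries (columns), colored by log2(FPKM + 1) minus the transcript's mean over the 12 other MN libraries, with colors capped at 5 in size. The 3 MN initial flowering columns are low by construction, and the TZM columns are low in many rows and high in others.

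Abundance was concentrated in a few transcripts. The highest MN group mean reached 10 FPKM in 130 members, 100 FPKM in 30 and 1000 FPKM in 6. The 5 most abundant members took 62.8% of the members' summed FPKM in the 12 other MN libraries. These were Cluster-2644.4, Cluster-2644.3, Cluster-2644.2, Cluster-7171.5 and Cluster-16767.16.

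Cluster-2644.4, the most abundant, was at 83.69, 241.71 and 83.58 FPKM at initial flowering. It held 4231.67, 1817.12 and 5161.32 FPKM at bud stage 1 and 11026.19, 3335.83 and 8064.65 FPKM at bud stage 3. At full bloom it held 833.33, 1293.98 and 1546.48 FPKM in the red region and 1565.40, 1903.68 and 400.21 FPKM in the white region. It was thus most abundant at bud stage 3, with an intermediate level at full bloom. Its 3 companions under the same number were also highest at bud stage 3: at initial flowering Cluster-2644.3 averaged 70.4 FPKM, Cluster-2644.2 averaged 84.7 FPKM and Cluster-2644.6 averaged 0.517 FPKM. At bud stage 3 Cluster-2644.3 averaged 5412 FPKM, Cluster-2644.2 averaged 3687 FPKM and Cluster-2644.6 averaged 63.9 FPKM.

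Cluster-7171.5 and Cluster-16767.16 kept the most stable residual level among the abundant members. Cluster-7171.5 was at 106.53, 132.20 and 114.71 FPKM at initial flowering, compared with 684 to 3191 FPKM in the 12 other MN libraries. Cluster-16767.16 was at 161.88, 156.79 and 186.64 FPKM, the highest mean of a member at initial flowering (168 ± 16.0 FPKM, SD, n = 3), while the others ranged over 575 to 1171 FPKM. Both were therefore expressed at initial flowering at levels above those most members reached at any stage, and they belong here through the size of their difference.

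Outside initial flowering the members were sorted by stage in MN into bud-high, bloom-high and level transcripts, according to whether the mean log2 value of the 2 bud groups differed from that of the 2 full-bloom groups by at least 1. There were 21 bud-high, 22 bloom-high and 107 level members, so most were at like levels before and after. The score starts from the lowest of these 4 groups, so the rule itself favours level members. No share of the candidates stands beside these 3 counts. Cluster-19760.8 was the plainest bud-high case among the named members, with 223 ± 22.7 FPKM at bud stage 1, 183 ± 30.7 at bud stage 3, 1.26 ± 0.291 at initial flowering, 12.4 ± 9.21 in the red region and 10.9 ± 11.2 in the white region (SD, n = 3 each). Its mean at full bloom lay between those of the buds and of initial flowering. The red region differed from the white region by at least 1 on the log2 scale in 12 members (8%), against 9.51% of the candidates. It was higher in the red region in 8 of these and lower in 4 (Cluster-76021.2, Cluster-10875.0, Cluster-15447.0 and Cluster-10563.1, named after their values were seen), and the median red minus white difference over the members was -0.02. Between bud stages 3 and 1, 16 members were at least 1 higher and 22 at least 1 lower at stage 3, together 25.3%, against 17.3% of the candidates.

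The identifiers have a number before a point, and transcripts of an assembly that share this number may be near-identical copies between which reads can be split. The sources used here do not say what the number stands for. The 150 members fell under 128 numbers, of which 16 held at least 2 members and together 38. No other transcript stood under the number of 48 members (32.0%, against 23.2% of the candidates). For the other 102 members, with a median of 8 further transcripts under the number, the summed FPKM of those further transcripts was lower at initial flowering than its mean over the 4 other MN groups in 90 cases and higher in 12. On the log2(sum + 1) scale it was at least 1 lower in 51 cases and at least 1 higher in 1, that of Cluster-12279.0 (named after its value was seen), with a median of -0.98. The further transcripts gained at initial flowering at least as much FPKM as the member lost in 7 cases. Summed over the whole number, the score was at least 1 for 55 of the 102 and at or under 0 for 23. By number, 88 of the 128 (68.75%) had a summed score of at least 1. Of the 24027 numbers with at least 5 FPKM in an MN group, 1.90% did. These sums include the members, so the excess is in part built in. For the 38 members in shared numbers the further transcripts include other members, themselves chosen as low, and are counted once per member. No share of the candidates stands beside the counts of 90 and 51.

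The total of a number, members included, was thus low at initial flowering in some cases and not in others. Under Cluster-72815, which has 4 transcripts and 3 members, the summed mean FPKM was 184 at bud stage 1, 356 at bud stage 3, 7.32 at initial flowering, 364 in the red region and 488 in the white region. Cluster-7171, with 7 transcripts and 3 members, summed to 1347, 1534, 149.96, 2742 and 2596 FPKM in the same order of groups. Cluster-102740, with 8 transcripts and 3 members, gave 64.9, 45.9, 4.34, 80.3 and 106 FPKM. In these 3 numbers the total was low at initial flowering, but it includes the members. The numbers were named for holding at least 3 members, so a low total restates the selection in part. Under Cluster-2644, with 15 transcripts and 4 members, the total was 13139, 19805, 1432, 4746 and 5031 FPKM, so transcripts that are no members kept most of what was measured at initial flowering. Cluster-16767, with 22 transcripts and 3 members, differed least of these 5 numbers, with 1949, 1981, 819, 1496 and 1240 FPKM.

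The opposite case was that of Cluster-31975.13, Cluster-28113.71 and Cluster-98019.10, whose numbers gained most elsewhere at initial flowering. Cluster-31975.13 averaged 2.44 FPKM at initial flowering, and the 13 further transcripts of its number summed to 136 FPKM there, against a mean of 100.1 FPKM in the other MN groups. For Cluster-28113.71 the further transcripts summed to 409 FPKM at initial flowering and 353 FPKM in the others, and for Cluster-98019.10 to 936 and 913 FPKM. These gains exceeded the members' losses. There were 12 members whose number also held a transcript at least 1 log2 unit higher at initial flowering than in every other MN group.

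**Figure D3:**
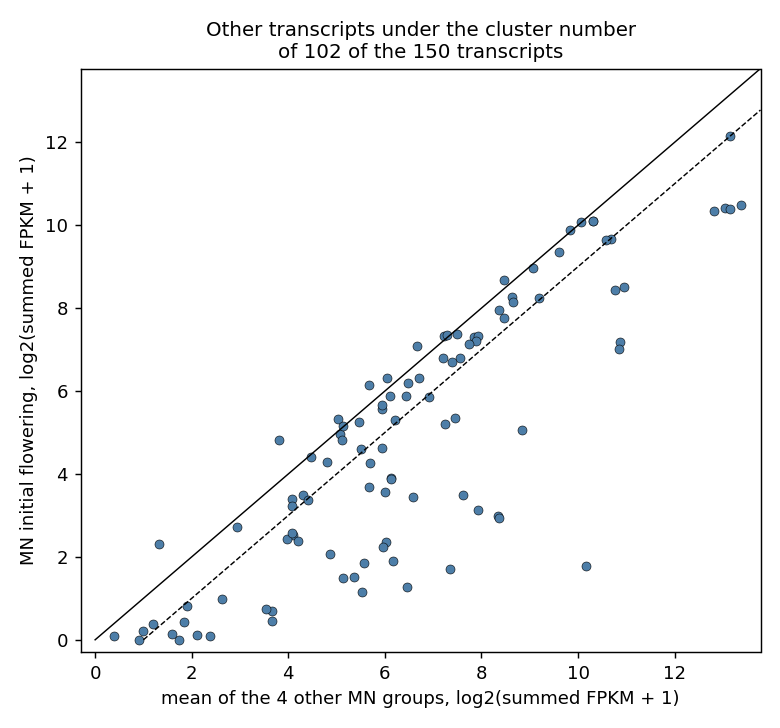
Summed expression of the further transcripts under the same number for the 102 members that have any, as log2(summed FPKM + 1) at MN initial flowering (vertical axis) against the mean of the 4 other MN groups (horizontal axis). The solid line marks equality and the dashed line a difference of 1, and 51 points lie at least 1 below equality. The further transcripts can include other members.

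Transcripts with a function or family name in the study's gene list were left out of the selection. None of these 86 would have reached the score of the last member. Only 150 of the 44792 candidates did, so that count says little. The study listed the 86 for co-expression, so they are not a sample of the candidates. A score above 0 was held by 2 of them, and the share of the candidates above 0 is given earlier. The anthocyanidin reductase (ANR) transcript Cluster-15097.13 scored 0.43 and the GARP transcription factor Cluster-86331.2 also 0.43, while the median was -1.52. The 6 CHS transcripts had a median score of -5.54, the 6 F3H transcripts -2.26, the 3 DFR transcripts -0.84 and the 3 ANS transcripts -1.81. A negative score means that some other MN group lay below initial flowering. No member shared its number with any of the 86.

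Differences between and within TZM and SZT use no MN library, and these were tested. The spread behind each test was shared over all groups, however, the MN libraries that chose the members included, so the counts were also taken with only the 12 TZM and SZT libraries in the fit, an alternative chosen after seeing the data. The test was limma on log2(FPKM + 1), fitted to all 27 libraries and to the 55099 transcripts with a mean of at least 5 FPKM in at least 1 group, which included all 150 members. Calls needed a log2 difference of 1 or more in either direction together with an adjusted p (Benjamini-Hochberg) not above 0.001. Log2 differences are on this log2(FPKM + 1) scale, which understates the change of low transcripts.

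In TZM the members were scarcer than in SZT. The median of group means was 6.83 FPKM at TZM full bloom and 5.81 FPKM at TZM bud, against 14.1 FPKM at SZT full bloom and 11.6 FPKM at SZT bud. Both TZM groups reached 5 FPKM in 56 members, and both SZT groups in 100. Means under 1 FPKM occurred in 38 members (25.3%) at TZM full bloom and in 35 (23.3%) at TZM bud, close to the 23.8% and 20.7% of the candidates. In SZT such means occurred in 13 members (8.67%) at full bloom and in 9 (6%) at bud, against 16.1% and 12.3% of the candidates. Compared with their own mean at MN initial flowering, 32 members were as low or lower at TZM full bloom and 33 at TZM bud, but 10 at SZT full bloom and 7 at SZT bud. Listed at 0 in all 6 TZM libraries were 13 members, of which 10 were also at 0 in all 3 MN initial flowering libraries. Cluster-12279.0, Cluster-17170.0 and Cluster-15785.0, named after their values were seen, were at 0 in all 6 SZT libraries. On the other hand, 25 members were higher at TZM bud or full bloom than in each of the 4 other MN groups. Apart from the means under 1 FPKM, no share of the candidates stands beside these counts. The rule asked for expression in MN, which arose from SZT, so the counts are not read as a trait of the members.

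At the bud, 27 members were called lower in TZM than in SZT and 4 higher. These are 18.0% and 2.67% of the members, where 8.46% of all tested transcripts were called lower and 6.50% higher. The members' median log2 difference was -0.89, against -0.04 over all tested. Since members are by construction well expressed in the other MN groups, the 20177 transcripts whose 4 other MN group means all reached the lowest such mean of a member, 3.34 FPKM, were counted too, and 9.15% of these were called lower in TZM and 4.61% higher. The count ran from 23 to 38 when each library of the comparison was left out, with 36 lower and 2 higher without SZT bud replicate 2, and with only the 12 TZM and SZT libraries it was 14, with 12 lower (8%, against 5.33% of all tested in that fit) and 2 higher (1.33% against 4.64%). With only the 6 libraries of the comparison 3 were lower (2%, against 1.54% of all tested) and 1 higher, so the excess of lower calls at the bud was small in that fit.

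At full bloom, 24 members (16.0%) were called lower in TZM than in SZT and 5 (3.33%) higher, against 9.51% and 8.76% of all tested. Of the 20177 transcripts, 9.61% were called lower and 6.72% higher. The members' median log2 difference was -0.57 and that of all tested transcripts 0. The count of 29 was 23 to 28 with 1 library left out, and with only the 12 TZM and SZT libraries it was 17, with 15 lower (10%, against 6.99% of all tested in that fit) and 2 higher (1.33% against 6.58%). With only the 6 libraries of the comparison it was 13, of which 12 were lower (8%, against 2.11%). With all 27 libraries in the fit, both comparisons thus had more lower and fewer higher calls among the members than among all tested transcripts. At both stages 10 members (6.67%) were lower in TZM, against 2.21% of all tested and 3.67% of the 20177 transcripts. At either stage 41 (27.3%) were lower, against 15.8% and 15.1%, and 0 were higher at both, against 2.14% and 0.525%.

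**Figure D4:**
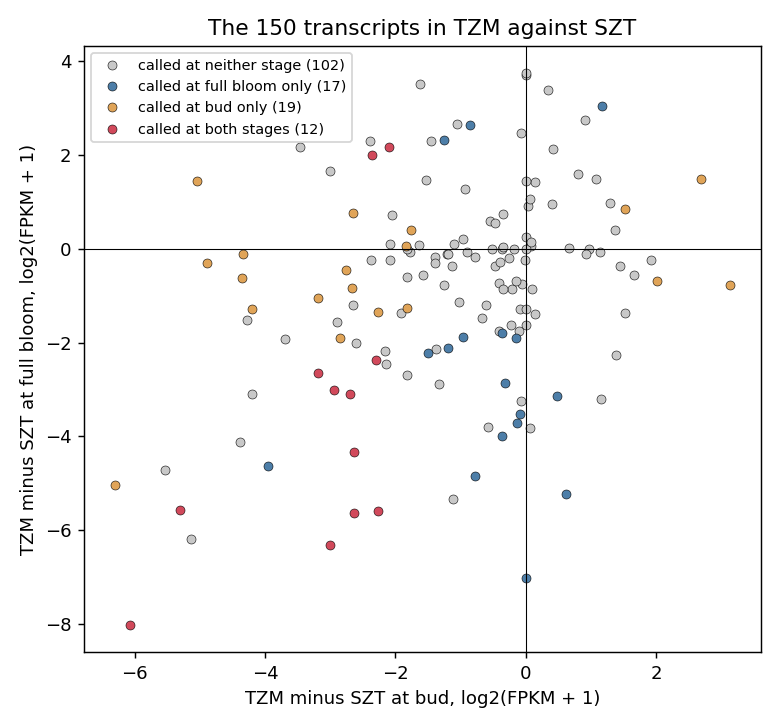
Log2 difference of TZM minus SZT on the log2(FPKM + 1) scale at full bloom (vertical axis) against the bud (horizontal axis) for the 150 transcripts, colored by whether they were called at neither stage (102), full bloom only (17), bud only (19) or both stages (12). Of the 12 called at both stages, 10 lie low at both.

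Cluster-7171.4 showed the widest gap. It was at 0, 0.91 and 0 FPKM at TZM full bloom, against 765.78, 221.78 and 191.73 FPKM at SZT full bloom. At the bud it was at 0 in all 3 TZM libraries and at 76.36, 38.09 and 99.51 FPKM in SZT. This transcript was therefore nearly unmeasured in TZM, while its MN means ran from 76.2 to 272 FPKM outside initial flowering. The log2 difference was -8.01 at full bloom (SE 0.49, adjusted p = 6.27e-11, limma) and -6.07 at bud (SE 0.49, adjusted p = 5.62e-09, limma). The abundant member of the same number, Cluster-7171.5, held 1510.26, 2614.01 and 1693.60 FPKM at TZM full bloom, against 4854.36, 2279.41 and 1978.95 FPKM at SZT full bloom. These groups overlapped, and the difference of -0.57 was not called (adjusted p = 0.277, limma).

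The 3 members of Cluster-72815 were called lower in TZM at both stages. Cluster-72815.3 was at 4.18, 19.69 and 19.26 FPKM at TZM full bloom, against 309.60, 295.20 and 190.76 FPKM at SZT full bloom. At the bud it was at 25.84, 16.82 and 19.76 FPKM in TZM, against 130.24, 143.84 and 123.07 FPKM in SZT. The groups did not overlap at either stage, and the log2 difference was -4.33 at full bloom (SE 0.38, adjusted p = 1.17e-08, limma) and -2.63 at bud (SE 0.38, adjusted p = 1.16e-05, limma). With only the 12 TZM and SZT libraries the bud call was lost (adjusted p = 0.00146, limma). Cluster-72815.1 and Cluster-72815.2 differed by -5.62 and -5.59 at full bloom and by -2.64 and -2.27 at bud. The TZM levels of Cluster-72815.3, with means of 14.4 and 20.8 FPKM, were nearer to its mean of 6.09 FPKM at MN initial flowering than to its SZT means of 265 and 132 FPKM.

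Cluster-86399.0 and Cluster-103824.4 were also at or near 0 in TZM. Cluster-86399.0 was at 0.08, 0.47 and 0 FPKM at TZM full bloom, against 139.88, 80.12 and 69.75 FPKM at SZT full bloom, a log2 difference of -6.32 (SE 0.29, adjusted p = 6.42e-13, limma). At the bud it was at 0, 0.07 and 0 FPKM in TZM and at 10.80, 5.90 and 5.80 FPKM in SZT. Cluster-103824.4 was at 0 in all 6 TZM libraries, while SZT held 30.88, 82.65 and 39.81 FPKM at full bloom and 33.92, 28.74 and 58.33 FPKM at bud. Both transcripts were thus measured in each SZT library. Cluster-35359.6 was at 0 in all 6 TZM libraries too, but at SZT bud it spread over 137.07, 9.43 and 338.69 FPKM, and its call at bud was lost without SZT bud replicate 1 (adjusted p = 0.0013) or replicate 3 (adjusted p = 0.00167, limma).

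Cluster-82174.1, the member with the highest score, was at 9.57, 0.96 and 2.50 FPKM at TZM bud, against 130.68, 52.64 and 268.64 FPKM at SZT bud. The log2 difference was -4.89 (SE 0.54, adjusted p = 4.56e-07, limma). At full bloom it was at 26.54, 23.95 and 15.19 FPKM in TZM, against 54.66, 19.50 and 17.32 FPKM in SZT, which overlapped and were not called (-0.30, adjusted p = 0.715, limma).

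Higher in TZM at the bud were Cluster-77631.0, Cluster-74039.21, Cluster-89223.5 and, named after its value was seen, Cluster-41940.3. Cluster-77631.0 was at 204.85, 273.09 and 218.56 FPKM at TZM bud, against 19.60, 31.42 and 26.83 FPKM at SZT bud, a log2 difference of 3.13 (SE 0.36, adjusted p = 7.39e-07, limma). These TZM values exceeded each MN library. Cluster-89223.5 was at 12.87, 9.96 and 8.94 FPKM at TZM bud and at 1.67, 1.14 and 3.09 FPKM at SZT bud (log2 difference 2.00, SE 0.28, adjusted p = 9.22e-06, limma). The call of Cluster-74039.21 (2.69, adjusted p = 0.000174, limma) was lost without SZT bud replicate 1 (2.13), SZT bud replicate 2 (2.51) or TZM bud replicate 1 (2.66).

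At full bloom the higher members were Cluster-16767.16, Cluster-16767.5, Cluster-78100.6, Cluster-48271.9 and, named after its value was seen, Cluster-48271.0. Cluster-16767.16 was at 1507.00, 1894.29 and 2083.45 FPKM at TZM full bloom, against 459.54, 226.32 and 232.67 FPKM at SZT full bloom, a log2 difference of 2.64 (SE 0.31, adjusted p = 8.81e-07, limma). The TZM libraries lay above each MN library of this transcript, whose highest was 1171 FPKM. Cluster-48271.9 and Cluster-48271.0 were lower in TZM at bud (-2.36 and -2.10) and higher at full bloom (2.00 and 2.16), and were the 2 members called in opposite directions. With only the 12 TZM and SZT libraries the full-bloom call of Cluster-48271.9 was lost (adjusted p = 0.00118, limma). The full-bloom calls of Cluster-16767.5 (adjusted p = 0.00346) and Cluster-78100.6 (adjusted p = 0.00306, limma) were lost in that fit too. The call of Cluster-78100.6 (3.04, adjusted p = 0.000447, limma) was lost whenever one of 5 of the 6 libraries was left out, SZT full-bloom replicate 1 being the exception, with differences of 2.69 to 3.19.

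**Figure D5:**
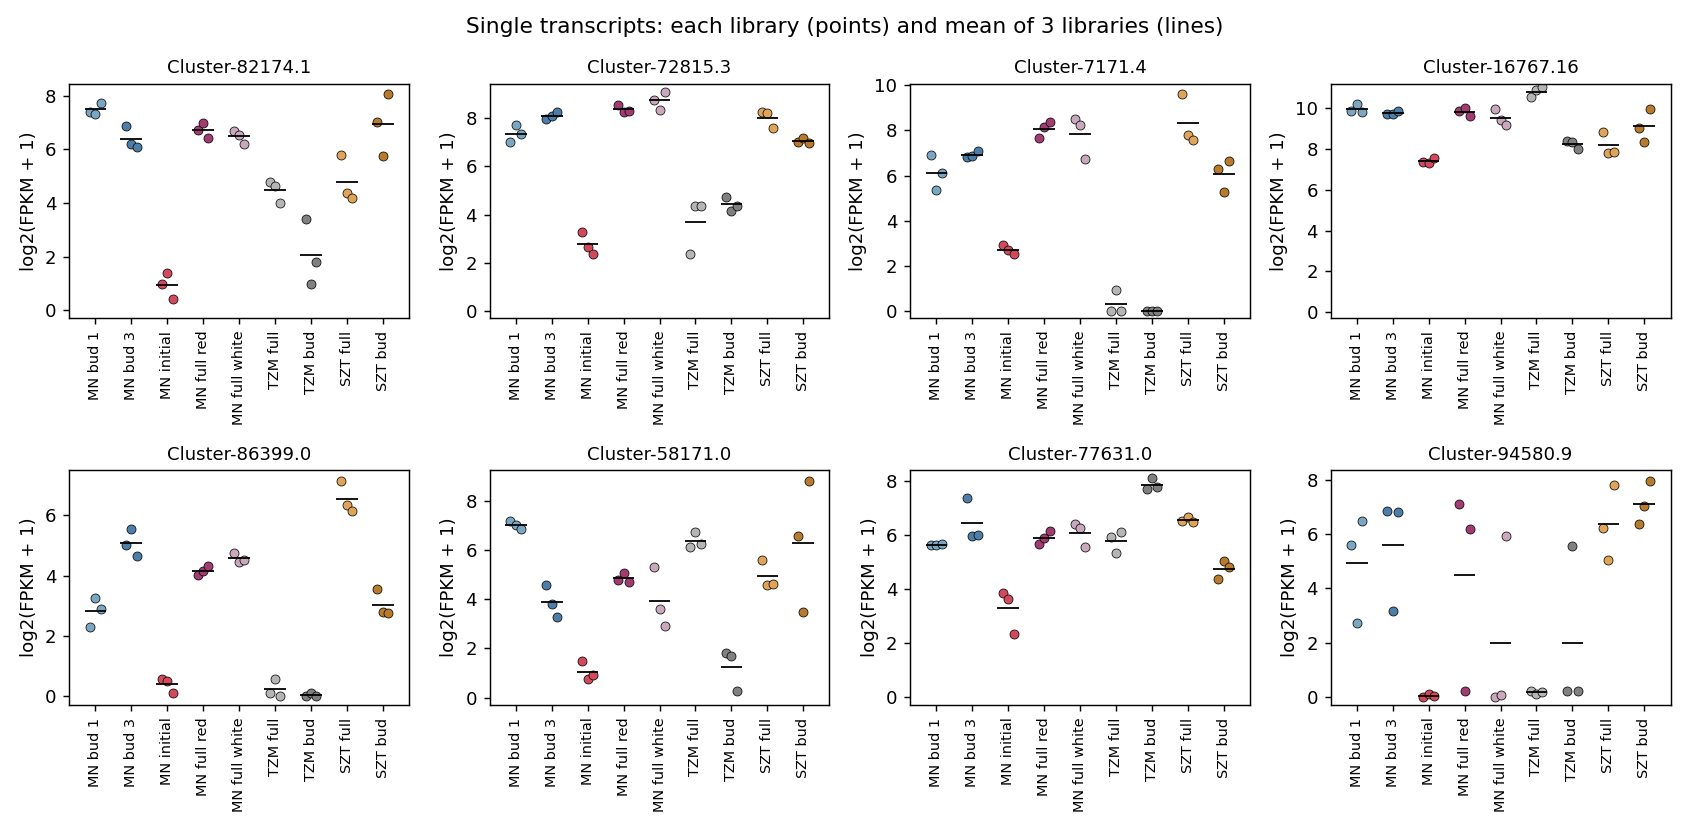
Single-library values (points) and the mean of 3 libraries (lines) of 8 members, as log2(FPKM + 1), in the 5 MN groups in order of stage followed by TZM and SZT. Initial flowering lies below the other MN groups in 7 panels, TZM is near 0 for Cluster-7171.4 and Cluster-86399.0, and Cluster-94580.9 is near 0 in single libraries of several groups.

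Between the stages of SZT, 11 members (7.33%) rose at full bloom and 5 (3.33%) fell, where 10.5% of all tested transcripts rose and 16.4% fell, and 7.26% and 17.2% of the 20177 transcripts. The share that rose was thus near that of the 20177, and the share that fell was lower. The rule disfavours large stage differences in MN, which were correlated with those of SZT across the candidates. The 20177 do not match the members in this, so the low share of falls is not free of the selection. The members' median log2 difference was 0.02, against -0.23 over all tested. The count rests on uneven bud libraries: the members' summed FPKM was 13731, 4027 and 27450 in SZT bud replicates 1, 2 and 3, and replicate 2 was the lowest of the 3 in 73.2% of the members with a single lowest library, against 41.1% of all tested transcripts. Without SZT bud replicate 2, 8 members rose (5.33%) and 9 fell (6%), so the balance turned. Of all tested in that fit 9.06% rose and 15.7% fell. Without replicate 1, 7 rose and 3 fell, with no share of all tested beside them. After median-ratio scaling of the libraries, which moved the median of all transcripts by 0.23, 17 members (11.3%) rose and 3 (2%) fell, against 14.1% and 11% of all tested. With only the 12 TZM and SZT libraries in the fit 5 rose (3.33%) and 2 fell (1.33%), against 8.60% and 13.2% of all tested. With only the 6 of the comparison 2 rose (1.33%) and 0 fell, against 3.80% and 4.71%. The share that fell was below that of all tested in each fit with a share beside it.

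The spread of the SZT bud libraries was wider for the members than for all tested transcripts, and no transcripts of like level were compared. Replicate 2 was lowest and replicate 3 highest in 82 members (54.7%), and in 20.5% of all tested transcripts. The median SD of log2(FPKM + 1) in this group was 1.14 over the members and 0.36 over all tested. It was wider for the members in the 7 other groups outside MN initial flowering too, from 0.39 to 0.85 against 0.25 to 0.33 over all tested. At MN initial flowering it was 0.20 against 0.24, but there the rule puts many members at or near 0, which holds their SD down. A part of the members' levels thus differed between libraries of one stage, and its part in their low values at initial flowering was not tested.

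Among the members that rose in SZT, Cluster-86399.0 was at 139.88, 80.12 and 69.75 FPKM at full bloom, against 10.80, 5.90 and 5.80 FPKM at bud (log2 difference 3.50, SE 0.29, adjusted p = 3.44e-09, limma). Cluster-72815.1 was at 169.97, 91.68 and 67.45 FPKM at full bloom, against 10.39, 5.55 and 11.48 FPKM at bud (3.40, SE 0.29, adjusted p = 4.80e-09, limma). Neither overlapped between the stages. Cluster-67147.4 was at 163.34, 113.36 and 115.21 FPKM at full bloom and at 0 in all 3 SZT bud libraries, as well as in all 6 TZM libraries. Of the members that fell, Cluster-19760.8 was at 10.42, 0.36 and 1.22 FPKM at full bloom, against 153.00, 120.07 and 276.34 FPKM at bud (-5.73, SE 0.68, adjusted p = 5.64e-07, limma). Cluster-90740.3 fell as well, with 11.43, 6.70 and 5.98 FPKM at full bloom, against 47.69, 35.53 and 65.69 FPKM at bud (-2.49, SE 0.42, adjusted p = 4.13e-05, limma). The others that fell were Cluster-20976.0, Cluster-36938.1 and Cluster-2341.0, the last 2 named after their values were seen, and the last 2 had log2 differences of -1.95 and -1.69. The call of Cluster-20976.0 (adjusted p = 0.000958) was lost without SZT bud replicate 1 (adjusted p = 0.004) or 3 (adjusted p = 0.0108) and without full-bloom replicate 2 (adjusted p = 0.00828) or 3 (adjusted p = 0.00363, limma).

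Between the stages of TZM, 17 members (11.3%) rose at full bloom and 11 (7.33%) fell, against 7.06% and 10.8% of all tested transcripts and 5.44% and 12.5% of the 20177. The median log2 difference was 0.19, against -0.09 over all tested. The count of 28 was 17 without TZM full-bloom replicate 2 and up to 26 with another library left out. With only the 6 libraries of the comparison it was 10. There 7 rose (4.67%) and 3 fell (2%), against 2.58% and 3.64% of all tested in that fit. With only the 12 TZM and SZT libraries 6 rose (4%) and 5 fell (3.33%), against 5.09% and 7.98% of all tested in that fit. The larger share of rises was thus not seen with the 12 libraries, but it was with the 6. It was also seen with a pseudocount of 0.01 (13.3% against 5.15%) and after median-ratio scaling (14% against 8.68%).

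Cluster-108638.0 was at 80.69, 103.04 and 47.47 FPKM at TZM full bloom, against 0.77, 0 and 0.10 FPKM at TZM bud (log2 difference 5.90, SE 0.82, adjusted p = 6.18e-06, limma). Cluster-58171.0 was at 68.98, 105.84 and 74.66 FPKM at full bloom, against 2.49, 2.22 and 0.19 FPKM at bud (5.12, SE 0.84, adjusted p = 4.31e-05, limma). In both, the TZM bud libraries were near those at MN initial flowering, and the full-bloom libraries stood within or above the range of MN full bloom. Both calls were lost with only the 12 TZM and SZT libraries (adjusted p = 0.00191 for Cluster-108638.0 and 0.00305 for Cluster-58171.0, limma). Cluster-73940.2 also rose (4.89, adjusted p = 0.000253), but the call was lost without TZM bud replicate 1 (4.95) or 2 (4.64) and without TZM full-bloom replicate 2 (4.35) or 3 (4.56, limma). It was also lost with only the 12 TZM and SZT libraries (adjusted p = 0.00184, limma). Among the members that fell, Cluster-19760.8 was at 0.70, 0.52 and 0.09 FPKM at full bloom, against 51.64, 19.11 and 18.73 FPKM at bud (-4.29, SE 0.68, adjusted p = 3.30e-05, limma). Cluster-106692.0 was at 0, 0 and 2.40 FPKM at full bloom, against 27.19, 15.49 and 10.77 FPKM at bud (-3.55, SE 0.59, adjusted p = 5.32e-05, limma), a call lost with only the 12 TZM and SZT libraries (adjusted p = 0.0051). Cluster-89223.5 fell to 0.43, 0.34 and 0.79 FPKM at full bloom, against 12.87, 9.96 and 8.94 FPKM at bud (-2.93, SE 0.28, adjusted p = 4.60e-08, limma). Cluster-19760.8 thus fell in both cultivars, and it was bud-high in MN.

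Read by their MN class, the 21 bud-high members had a median full bloom minus bud difference of log2 group means of 0 in TZM and -1.16 in SZT. The 22 bloom-high members had medians of 2.18 in TZM and 0.90 in SZT, and the 107 level members 0 in both. Across the 150 members the stage difference of MN and that of SZT had a Pearson r of 0.433 and a Spearman rho of 0.380, against 0.794 and 0.760 across the candidates. For MN and TZM r was 0.253 and rho 0.134, against 0.533 and 0.463. Transcripts are not independent replicates, and each of these values shares its 3 libraries per group, so they are given as a description. The rule favours members with a small stage difference in MN, and that narrower range can lower r and rho. The lower values among the members are therefore not read as a trait of theirs.

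The stage change of TZM exceeded that of SZT in 9 members (6%) and lay below it in 11 (7.33%), against 6.89% and 6.15% of all tested transcripts and 7.49% and 5.98% of the 20177. The median difference was 0.32, against 0.11 over all tested. Without SZT bud replicate 2, 15 members (10%) had a higher and 10 (6.67%) a lower change in TZM, so the balance turned. Of all tested in that fit 7.21% were higher and 5.85% lower. With only the 12 TZM and SZT libraries the 20 calls were 6. Of these 2 were higher (1.33%, against 2.51% of all tested) and 4 lower (2.67% against 3.07%). With all 27 libraries the shares in both directions were near those of all transcripts. Cluster-48271.9 shows the higher case: in TZM it was at 154.61, 217.07 and 130.86 FPKM at full bloom and at 17.00, 20.03 and 15.34 FPKM at bud, and in SZT at 60.98, 38.33 and 27.63 FPKM at full bloom and at 110.94, 56.60 and 129.24 FPKM at bud. The difference of the changes was 4.36 (SE 0.43, adjusted p = 2.29e-07, limma). Cluster-42198.0 shows the lower one: in TZM it was at 0.23, 0.65 and 0.66 FPKM at full bloom and at 6.94, 4.50 and 7.07 FPKM at bud, and in SZT at 54.41, 31.35 and 43.54 FPKM at full bloom and at 9.27, 5.28 and 26.94 FPKM at bud. The difference was -4.06 (SE 0.53, adjusted p = 7.47e-06, limma), and this call was lost with only the 12 TZM and SZT libraries (adjusted p = 0.00132). Over the 4 comparisons within and between TZM and SZT, 57 members (38%) were called in at least 1 and 93 in none, where 45.6% of all tested transcripts and 44.6% of the 20177 were called in at least 1. Of the named calls in these 4 comparisons, 34 held and 20 were lost with only the 12 TZM and SZT libraries.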

How the data were processed

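RNA-seq libraries were prepared from petals in 9 groups of 3. Per the labels, reads were trimmed with Trimmomatic 0.36. The authors assembled the transcripts de novo and deposited their FPKM with 2 decimals, 1 value for each library. The sources used here do not name the mapper or the program for expression. Columns were matched to samples by name, with 0 columns unmatched.

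Group means, SDs and scores were computed with Python 3.11.15, pandas 2.3.3 and numpy 2.4.6, and figures with matplotlib 3.10.9. Differences between and within TZM and SZT were tested with limma (version 3.58.1, R version 4.3.3) on the scale log2(FPKM + 1) with a trend, 1 mean per group over all 27 libraries and Benjamini-Hochberg adjustment over 55099 transcripts (mean of at least 5 FPKM in at least 1 group). The scripts were tested on simulated data. DEGseq, which the study used, needs read counts and was not run. The depth of single libraries is unknown, and rounding makes low values the least precise.

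Named were the 10 highest scores, the 3 transcripts on each side of the threshold, the 5 most abundant members, the 3 largest rises and falls among the called members of each of the 5 fits, the members of the numbers with at least 3 members, the 3 whose numbers gained most at initial flowering and the 3 highest at initial flowering. Exceptions are marked. The members and lists were chosen with earlier results of these data known. The labels share replicate numbers between groups. Deviations of same-numbered libraries from their group means had an r of -0.22 to 0.15 over 108 pairs of same-numbered libraries, with 3 over 0.1. No sign of pairing by number was thus seen, but this does not exclude that same-numbered libraries share a plant. Alternatives were the pseudocount, the filter, the thresholds, scaling of the libraries, a replicate block, fewer libraries (the fit with only the 12 TZM and SZT libraries was chosen after seeing the data) and, for the selection, medians, summed numbers and another minimum.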

Additional observations from a re-analysis of the deposited data

Results flagged for a closer look

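For 12 of the named members the change between bud and full bloom differed between TZM and SZT by the interaction test (limma, log2(FPKM + 1) scale, change of TZM minus change of SZT, 3 libraries per group). The change was higher in TZM for Cluster-58171.0 (6.49, SE 1.18, adjusted p = 0.000239), Cluster-82174.1 (4.59, adjusted p = 0.000103), Cluster-48271.9 (4.36), Cluster-16767.5 (3.57) and Cluster-16767.16 (3.51). It was lower in TZM for Cluster-67147.4 (-7.02, from a transcript listed at 0 in all TZM and SZT bud libraries), Cluster-42198.0 (-4.06), Cluster-77631.0 (-3.90), Cluster-72815.2 (-3.32), Cluster-86399.0 (-3.31), Cluster-72815.1 (-2.99) and Cluster-89223.5 (-2.69). The call of Cluster-58171.0 was lost without TZM bud replicate 3 (5.99, adjusted p = 0.00105), and the 11 others kept their call without each library in turn. With only the 12 TZM and SZT libraries in the fit 5 of the 12 kept their call: Cluster-67147.4, Cluster-86399.0, Cluster-77631.0, Cluster-48271.9 and Cluster-72815.2.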

How the results depend on the processing

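Of the 150 members, 55 were chosen again with a pseudocount of 0.01, 93 with a pseudocount of 5, 92 with group medians, 91 with FPKM summed per number, 129 after median-ratio scaling, 130 with a minimum of 10 FPKM and 108 to 141 with 1 MN library left out. The calls among the members moved as follows. The share called among all tested transcripts moved with the setting as well. For falls in SZT between stages it was 16.4% in the main fit and 4.71% with only the 6 libraries of the comparison. No such share stands beside the counts in this paragraph, so their changes are not read as a trait of the members. With an adjusted p under 0.05 there were 37 in SZT and 49 in TZM between stages, 54 at bud and 53 at full bloom between TZM and SZT, and 43 for the difference of the changes (22 higher and 21 lower, the reverse balance). With only the libraries of the comparison in the fit the counts were 2, 10, 4, 13 and 6 in the same order, fewer samples behind each spread. With only the 12 TZM and SZT libraries, chosen after seeing the data, they were 7, 11, 14, 17 and 6. With 1 library left out they ranged over 10 to 21, 17 to 26, 23 to 38, 23 to 28 and 15 to 25, and without SZT bud replicate 2 the balance turned for SZT between stages (17 calls) and for the difference of the changes (25 calls). A pseudocount of 0.01 left 9 calls in SZT between stages. Scaling moved the median difference of all transcripts by 0.23 in SZT between stages and gave 17 rises and 3 falls. A replicate block gave 14, 27, 30, 29 and 20 calls, against 16, 28, 31, 29 and 20 without it. Of 66 calls of named members, 53 held without each library in turn and 23 with only the libraries of the comparison. Class sizes at a threshold of 0.5 were 43, 65 and 42. Where no cause is given it was not tested.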
